A study of Mus musculus with 15 samples.

Results

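The epithelial splicing and transcription regulators described here are 7 of the 19938 genes measured in mouse prostate epithelial cells: Esrp1, Esrp2, Grhl2, Ovol1, Elf3, Ehf and Klf5. They were chosen by name. Each had 1 probe set assigned to it alone, and that probe set gave its level. RNA was measured on 15 arrays, 3 in each of 5 groups, all from ventral prostate epithelium of FVB mice in culture. The 4 line groups were transduced with c-myc (Myc), neuT (NeuT), ha-ras (Ras) or v-src (Src), and the control group was primary epithelium with no transduced gene. The lines grew in DMEM with 10% FBS. Control cultures were held in primary prostate epithelial medium and moved to DMEM with 10% FBS only the night before harvest, so medium history and transduction cannot be told apart in any difference from control. All cells were harvested at 85 to 90% confluence. The series states 3 lines for each oncogene, while the sample labels say only replicate. The p-values therefore speak only to the spread among these arrays, possibly technical, and their number limits the precision. Values are log2 expression throughout.

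ESRP1 and ESRP2 are RNA-binding proteins that direct the epithelial splice forms of transcripts such as Fgfr2, Cd44, Ctnnd1 and Enah. GRHL2 is a transcription factor that holds epithelial genes active, and OVOL1 is one that represses mesenchymal genes. Both oppose the repressor ZEB1. ELF3 and EHF are ETS-family factors largely restricted to epithelia, and KLF5 is a zinc-finger factor of proliferating and basal epithelium. The arrays read whole-gene levels and do not read splice forms.

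Promoter windows are shown first, with E-boxes of the form CACCTG marked, which ZEB and SNAI repressors are known to bind. RefSeq's windows for GRCm38.p6 run from 250 bases before to 50 bases after a gene's start. Elf3 was the 1 member of the 7 with an entry. Beside it stand the epithelial genes Epcam, Lsr and Spint2, which are the listed epithelial effector genes among those whose pattern over the 15 arrays was nearest to that of a member. Each sequence runs 5′ to 3′ on the gene's strand, and capitals mark CACCTG or its reverse complement CAGGTG.
Elf3, chr1:135258423-135258722, minus strand: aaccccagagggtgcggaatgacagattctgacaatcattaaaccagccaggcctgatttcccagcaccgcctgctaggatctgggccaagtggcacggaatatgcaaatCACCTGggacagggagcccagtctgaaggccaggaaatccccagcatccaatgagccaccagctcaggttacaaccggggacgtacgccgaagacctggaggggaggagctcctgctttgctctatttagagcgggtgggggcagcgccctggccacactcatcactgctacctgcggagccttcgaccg
Epcam, chr17:87635729-87636028, plus strand: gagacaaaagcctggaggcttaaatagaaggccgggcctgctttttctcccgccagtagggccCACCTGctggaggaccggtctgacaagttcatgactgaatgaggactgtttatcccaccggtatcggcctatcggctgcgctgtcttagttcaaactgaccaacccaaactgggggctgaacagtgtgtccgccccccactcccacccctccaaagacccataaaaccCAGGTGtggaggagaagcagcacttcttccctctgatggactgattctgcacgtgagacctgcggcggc
Lsr, chr7:30973420-30973719, minus strand: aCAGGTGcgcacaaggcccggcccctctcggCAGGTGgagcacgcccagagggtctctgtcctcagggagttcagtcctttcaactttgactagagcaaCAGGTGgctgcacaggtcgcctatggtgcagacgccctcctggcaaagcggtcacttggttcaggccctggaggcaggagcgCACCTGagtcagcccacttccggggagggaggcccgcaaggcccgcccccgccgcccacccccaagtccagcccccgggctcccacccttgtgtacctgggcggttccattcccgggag
Spint2, chr7:29281928-29282227, minus strand: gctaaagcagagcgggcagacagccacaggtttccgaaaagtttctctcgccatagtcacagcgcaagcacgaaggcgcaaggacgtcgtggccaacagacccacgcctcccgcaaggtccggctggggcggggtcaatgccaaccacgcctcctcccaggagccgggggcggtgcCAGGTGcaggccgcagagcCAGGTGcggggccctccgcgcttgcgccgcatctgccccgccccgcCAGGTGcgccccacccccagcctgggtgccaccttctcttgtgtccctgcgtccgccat
Elf3 has 1 copy, starting at position -140 from the gene start. Epcam has 2 copies, Lsr 4 and Spint2 3. CACCTG on either strand occurred in 6640 of all 32851 windows (20.2%). Counted by gene over any of its windows, it occurred in 6098 of 27025 genes (22.6%) and in 15 of the 18 listed epithelial effector genes with an entry (83.3%). The share was 6 of 17 for all nearest-pattern genes with an entry (35.3%), 2 of 6 for the paralogs and 1 of 4 for the repressors. These matches describe letters only, and the motif and the lists were chosen with the data known. Binding was not measured, and a part of these repressors in the differences below was not tested.

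Some facts of the whole series touch these results. Control array 3 carried kidney tubule transcripts: Kap, a kidney androgen-regulated protein, was at 12.10 there and at 4.78 and 4.83 on control arrays 1 and 2. Endothelial transcripts were higher on it as well. A list of 5 endothelial genes averaged 7.15 on control array 3 and 5.03 and 5.08 on control arrays 1 and 2. The 7 members were all lowest among the controls on array 3, by a median of -0.40 against -0.06 over all genes, so some differences from control are also given without it. Erbb2, which NeuT derives from, was higher in the NeuT lines than in control (1.70 ± 0.13, adjusted p = 4.27e-07). The Myc probe set was lower in the lines labelled Myc than in control (-0.92 ± 0.19, adjusted p = 0.00207). Src differed by 0.05 ± 0.09 (adjusted p = 0.743) in the Src lines, and Hras had no probe set of its own. Directions drawn from the Myc, Ras and Src groups therefore rest on their labels. The median over all genes and arrays was 6.47, and a level below it may be close to background, which was not measured. On each Ras array only Klf5 of the 7 members lay above it. The sizes of the Ras falls, and their order among the members, may therefore be limited by background.

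The label of epithelial cells was checked against Epcam, Cdh1, Cdh3 and Cldn7, which mark epithelium. On the Ras arrays between 0 and 1 of these 4 lay above 6.47, against all 4 on every array of the other groups. Epcam, the epithelial adhesion molecule, was at 4.46, 4.47 and 4.38 on the Ras arrays and at 9.69, 9.78 and 9.53 on the control arrays. Cdh1, which encodes E-cadherin, was at 5.88, 6.14 and 5.71 on the Ras arrays and at 11.30, 11.33 and 10.86 on the control arrays. These 4 markers thus go against the epithelial label for the Ras lines. Of the 4 measured luminal genes, Krt19 and Krt8, keratins of simple epithelium, were lower without falling below 6.47. Krt18 was at 9.83, 6.58 and 5.80 on the Ras arrays, so it fell below 6.47 on Ras array 3. Pbsn had group means from 3.07 to 3.22, control included, and so does not inform this check. Krt19 was at 9.55, 8.43 and 9.53 on the Ras arrays and at 12.01, 11.94 and 11.49 on the control arrays (-2.64 ± 0.25, adjusted p = 1.78e-06). Krt8 was at 7.72, 7.73 and 7.32 on the Ras arrays and at 12.92, 12.95 and 12.78 on the control arrays (-5.29 ± 0.10, adjusted p = 1.31e-13). In bulk RNA, fewer cells of a type and less RNA per cell cannot be told apart.

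**Figure D1:**
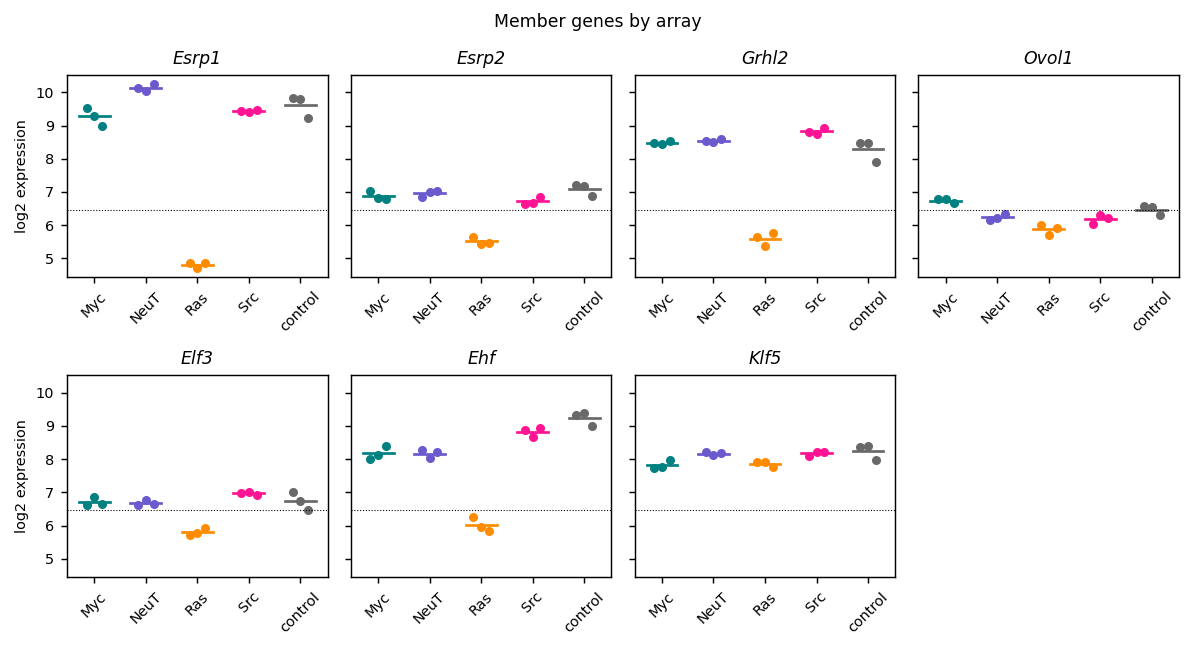
Log2 expression (y axis) of the 7 member genes in the 5 groups (x axis). Points are arrays, bars are group means of 3 arrays, and the dotted line marks 6.47, the median of all gene values. The Ras points lie below all others for Esrp1, Esrp2, Grhl2, Elf3 and Ehf.

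Esrp1 had the widest span of group means among the members. It was at 9.52, 9.30 and 9.00 on the arrays labelled Myc, 10.13, 10.05 and 10.26 on the NeuT arrays, 4.86, 4.72 and 4.86 on the Ras arrays, 9.43, 9.40 and 9.48 on the Src arrays and 9.83, 9.80 and 9.21 on the control arrays. The Ras arrays stood apart from all 12 others, and the NeuT arrays lay above every other array. Esrp1 averaged 4.81 ± 0.08 in the Ras lines and 9.61 ± 0.35 in control (SD, n = 3 each), 27.8-fold lower in the Ras lines (log2 difference -4.80 ± 0.15 SE, limma adjusted p = 2.36e-11). Against the NeuT lines, at 10.14 ± 0.11, it was 40.2-fold lower in the Ras lines (adjusted p = 1.21e-11). In the NeuT lines Esrp1 rose by 0.53 ± 0.15 over control (adjusted p = 0.0176). Without control array 3 that difference was 0.33 (adjusted p = 0.0617), and without NeuT array 3 the call was lost as well (adjusted p = 0.073). Against the lines labelled Myc, the NeuT lines were higher by 0.87 (adjusted p = 0.00132), and this call held under the 23 alternatives of fit and arrays, though the difference is below a 2-fold minimum. The Src lines were lower than the NeuT lines (-0.71, adjusted p = 0.00422). Src and Myc-labelled lines were not separated from control by the test (-0.18 with adjusted p = 0.419, and -0.34 with adjusted p = 0.124), although without control array 3 both were called lower (-0.38 with adjusted p = 0.0367, and -0.54 with adjusted p = 0.00344).

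Esrp2, the paralog of Esrp1, moved the same way over a smaller span. Its levels were 7.01, 6.83 and 6.78 in the lines labelled Myc, 6.86, 7.01 and 7.04 in NeuT, 5.65, 5.44 and 5.46 in Ras, 6.65, 6.67 and 6.86 in Src and 7.22, 7.18 and 6.89 in control. The Ras arrays did not overlap any other group, and the Src range lay just under that of control. Esrp2 fell by 1.58 ± 0.11 in the Ras lines (2.99-fold lower, adjusted p = 5.36e-08). It was also lower in the Ras lines than in those labelled Myc (-1.36, adjusted p = 3.22e-07), NeuT (-1.45, adjusted p = 1.56e-07) and Src (-1.21, adjusted p = 1.07e-06). In the Src lines Esrp2 fell by 0.37 ± 0.11 below control (adjusted p = 0.0186), a call that was lost under 5 of 23 alternatives, among them leaving out control array 1 or 2 or Src array 1 or 2, with adjusted p up to 0.0745. The Myc and NeuT groups differed from control by -0.22 (adjusted p = 0.146) and -0.13 (adjusted p = 0.454), and without control array 3 the Myc difference was -0.32 (adjusted p = 0.0302).

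Grhl2 gave a pattern with Src at the top. It was at 8.47, 8.45 and 8.53 in the lines labelled Myc, 8.53, 8.49 and 8.60 in NeuT, 5.64, 5.36 and 5.77 in Ras, 8.81, 8.73 and 8.92 in Src and 8.46, 8.49 and 7.90 in control. The Src arrays lay above every other array and the Ras arrays below. Grhl2 was 6.47-fold lower in the Ras lines than in control (-2.69 ± 0.14, adjusted p = 3.2e-09), and lower than in the Src lines (-3.23, adjusted p = 5.97e-10). In the Src lines it rose by 0.54 ± 0.14 over control (adjusted p = 0.0107). That rise was 0.34 without control array 3 (adjusted p = 0.0272), and it was not called when only the Src and control arrays were fitted (adjusted p = 0.0578). The Src, NeuT and Myc neighbours in the order were not separated from each other (adjusted p = 0.194 and 0.91).

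Ovol1, a zinc-finger repressor of mesenchymal and progenitor genes in epithelium, was below 6.47 on 10 of the 15 arrays. The lines labelled Myc had 6.78, 6.78 and 6.66, NeuT 6.17, 6.21 and 6.34, Ras 6.01, 5.72 and 5.91, Src 6.02, 6.29 and 6.22 and control 6.58, 6.54 and 6.30. The Myc-labelled arrays were the highest and did not overlap the others, and the Ras arrays were below all others. Ovol1 fell by 0.59 ± 0.10 in the Ras lines below control (1.51-fold lower, adjusted p = 0.00047) and by 0.86 below the Myc-labelled lines (adjusted p = 1.91e-05). NeuT and Src lines were lower than those labelled Myc as well, with differences of -0.50 (adjusted p = 0.00391) and -0.56 (adjusted p = 0.00133). The Ras difference from Src (-0.30, adjusted p = 0.0452) was lost under 16 of 22 alternatives, and the Src difference from control (-0.30, adjusted p = 0.0468) under 15 of 22. Each of these 2 calls was lost with any 1 of 11 arrays left out, at adjusted p up to 0.164 and 0.177. The Ras difference from NeuT (-0.36, adjusted p = 0.0157) was lost without NeuT array 3 (adjusted p = 0.0746) or Ras array 2 (adjusted p = 0.0679). Without control array 3, Ovol1 was lower than control in the Ras (-0.68, limma adjusted p = 0.000142) and Src lines (-0.38, adjusted p = 0.0152). The NeuT difference from control was then called too (-0.32, adjusted p = 0.0371, against -0.23 and 0.119 with all arrays). The Myc difference was 0.18 (adjusted p = 0.257).

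Elf3 and Ehf, the ETS-family members, are described together. Elf3 was at 6.63, 6.86 and 6.64 in the lines labelled Myc, 6.60, 6.76 and 6.66 in NeuT, 5.71, 5.77 and 5.91 in Ras, 6.97, 7.01 and 6.92 in Src and 7.01, 6.74 and 6.48 in control. Its Ras arrays were below all others, while the control arrays overlapped the Myc, NeuT and Src groups. Elf3 was 1.93-fold lower in the Ras lines than in control (-0.95 ± 0.12, adjusted p = 2.25e-05) and fell by 1.17 below the Src lines (adjusted p = 3.72e-06). The Myc, NeuT and Src differences from control were -0.04, -0.07 and 0.23, with adjusted p from 0.17 to 0.868. Without control array 3 they were -0.17, -0.20 and 0.09 (limma adjusted p = 0.297, 0.218 and 0.572). The Ras difference was then -1.08 (adjusted p = 1.32e-06).

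Ehf was the member that fell in every line group. Its levels were 7.99, 8.12 and 8.41 in the lines labelled Myc, 8.26, 8.02 and 8.21 in NeuT, 6.26, 5.96 and 5.83 in Ras, 8.86, 8.67 and 8.93 in Src and 9.34, 9.39 and 9.00 in control. Each line group lay below all 3 control arrays, the Ras arrays lowest. Ehf was 9.35-fold lower in the Ras lines than in control (-3.23 ± 0.14, adjusted p = 6.22e-10). The Myc and NeuT lines fell by 1.07 ± 0.14 (adjusted p = 4.48e-05) and 1.08 ± 0.14 (adjusted p = 4.88e-05), and both calls held under the 23 alternatives of fit and arrays. The fall in the Src lines was 0.42 ± 0.14 (adjusted p = 0.0394), lost under 10 of 23 alternatives, but 0.54 without control array 3 (adjusted p = 0.00982). Leaving out any Src array, control array 1 or 2, Myc array 2 or NeuT array 3 ended that call, with adjusted p from 0.0506 to 0.145. The Src lines were higher than the Myc-labelled lines and the NeuT lines, by 0.65 each (adjusted p = 0.00475 and 0.0042).

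Klf5 was the 1 member of 7 whose Ras and Myc groups the test did not separate. It was at 7.74, 7.77 and 7.97 in the lines labelled Myc, 8.21, 8.11 and 8.17 in NeuT, 7.92, 7.92 and 7.75 in Ras, 8.10, 8.20 and 8.20 in Src and 8.38, 8.40 and 7.97 in control. Only 0.34 separated the highest and lowest line means. The Ras and Myc groups differed by 0.04 (95% interval -0.20 to 0.27, adjusted p = 0.863). Klf5 was lower than control in the Myc-labelled lines (-0.42 ± 0.11, adjusted p = 0.00808) and in the Ras lines (-0.39 ± 0.11, adjusted p = 0.0146). The Ras call was lost under 5 of 23 alternatives, among them leaving out Ras array 3 (adjusted p = 0.0584), control array 1 (adjusted p = 0.0667) or control array 2 (adjusted p = 0.0695). Without control array 3 the differences were -0.56 for Myc (limma adjusted p = 0.000217) and -0.53 for Ras (adjusted p = 0.000402). Those for NeuT and Src were both -0.22 (adjusted p = 0.0988 and 0.0979). Differences of Klf5 between the Ras and NeuT lines (-0.30, adjusted p = 0.0492), NeuT and Myc-labelled lines (0.34, adjusted p = 0.0482) and Src and Myc-labelled lines (0.34, adjusted p = 0.0391) were lost under 16, 14 and 9 of 23 alternatives, including the removal of any 1 of 12, 10 and 7 arrays.

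**Figure D2:**
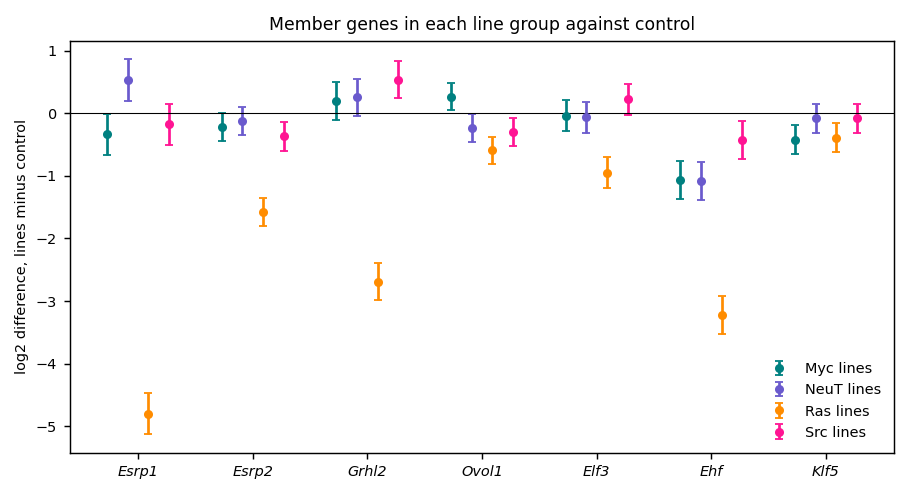
Log2 difference from control (y axis) of each member (x axis) in the 4 line groups, with 95% confidence intervals from limma (3 arrays a group). The Ras intervals lie far below 0 for Esrp1, Grhl2 and Ehf, at -4.80, -2.69 and -3.23, and nearer to 0 for Klf5 and Ovol1.

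Counted over the members, the Ras lines had 7 of 7 below control and 0 above, against 14.2% of all genes lower and 13.3% higher at an adjusted p under 0.05, with a median member difference of -1.58 beside 0.02 over all genes. The lines labelled Myc had 2 of 7 lower and 0 higher (background 12.7% and 15.9%), and NeuT 1 lower and 1 higher (11.6% and 15.2%). Src had 3 lower and 1 higher (12.2% and 14.2%). Without control array 3 the Ras count stayed at 7 lower. The Myc-labelled lines then had 4 lower, the NeuT lines 2 lower and 0 higher, and the Src lines 4 lower and 1 higher. In that fit the shares of all genes lower were 14.6% for Ras, 13.3% for Myc, 11.8% for NeuT and 13.1% for Src. The shares higher ran from 11.6% to 14.4%. The Src count of 4 calls was 2 without Myc array 2, NeuT array 3, Src array 2 or 3 or control array 1, and 1 without Src array 1 or control array 2. The NeuT count of 2 was 1 without NeuT array 3. For these last fits the shares of all genes are not given. The 4 comparisons share the controls. Between line groups, the Ras lines had 6 members below Myc (16.6% of all genes lower, 11.8% higher), 7 below NeuT (16.5% and 11.6%) and 6 below Src (14.1% and 12.1%), with 0 above in each. The Src lines had 2 higher and 1 lower than Myc (7.57% and 11.4%) and 1 higher and 1 lower than NeuT (7.95% and 12.2%), and the NeuT lines 2 higher and 1 lower than Myc (7.95% and 6.99%). Without control array 3, which enters only the shared estimate of spread there, the Src and NeuT lines differed for 4 members. The share of all genes called in that fit is not given for this comparison, so the count is not read as a result about the members. An F test over the 4 line groups called 7 of 7, against 42.1% of all genes.

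Of 6 paralogs of the members, all measured, 2 were lower than control in the Ras lines and 0 higher (14.2% and 13.3% of all genes). Grhl1 and Grhl3, the epidermal relatives of Grhl2, fell in the Ras lines by 0.85 ± 0.11 (adjusted p = 2.56e-05) and 1.12 ± 0.13 (adjusted p = 1.73e-05). Both also fell in the NeuT lines (-0.83 with adjusted p = 3.45e-05, and -1.20 with adjusted p = 1.17e-05), where the Grhl2 difference was 0.26 (adjusted p = 0.211). Grhl3 fell in the Myc-labelled lines (-1.04, adjusted p = 3.56e-05) and the Src lines (-0.59, adjusted p = 0.00456) too. Grhl1 fell in the Src lines (-0.34, adjusted p = 0.0262), a call kept by 16 of 21 alternatives and lost without any Src array or control array 1 or 2 (adjusted p up to 0.0845), and differed by -0.24 in the Myc-labelled lines (adjusted p = 0.111). Klf4, the relative of Klf5 that marks differentiating epithelium, rose in the NeuT lines (1.06, adjusted p = 6.02e-05), the Src lines (0.98, adjusted p = 0.000158) and the Myc-labelled lines (0.57, adjusted p = 0.00703). In the Ras lines its difference was 0.24 (adjusted p = 0.252). The median over the 6 in the Ras lines was -0.18. Elf5 passed in no line group. Ovol2 in the Myc-labelled lines (0.25, adjusted p = 0.0388) and Spdef in the Src lines (0.32, adjusted p = 0.0284) passed, but 13 and 17 of 21 alternatives kept those calls.

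The repressors that oppose these genes were higher in the Ras lines for 4 of 6 listed and lower for 0, with a median of 1.31 beside 0.02 over all genes. Of all genes, 13.3% were higher and 14.2% lower there. Zeb1 was at 8.81, 8.52 and 8.95 on the Ras arrays and at 6.41, 6.32 and 6.79 on the control arrays. It rose by 2.25 ± 0.13 (adjusted p = 8.59e-09) in the Ras lines but fell in the Myc-labelled lines (-0.60, adjusted p = 0.00223) and the Src lines (-0.65, adjusted p = 0.00167). Zeb2 was at 8.26, 8.25 and 8.36 on the Ras arrays and at 5.63, 5.78 and 7.32 on the control arrays, a rise of 2.05 ± 0.31 (adjusted p = 0.000139) that was 2.59 without control array 3. The Ras arrays thus were the only ones with both above 8. Twist1, a mesenchymal bHLH factor, rose in the Ras lines (2.38, adjusted p = 7.19e-09), the NeuT lines (1.84, adjusted p = 1.83e-07) and the Src lines (1.50, adjusted p = 1.67e-06). Snai2, another repressor of E-cadherin, had a different order. It was at 8.82, 9.01 and 8.45 on the Ras arrays and at 8.69, 8.80 and 8.50 on the control arrays (0.10, adjusted p = 0.654). It rose in the Src lines (1.52, adjusted p = 2e-06) and fell in the NeuT (-1.40, adjusted p = 3.07e-06) and Myc-labelled lines (-2.71, adjusted p = 6.44e-09). Twist2, the relative of Twist1, rose in the Ras lines (0.57, adjusted p = 0.00273) and the Src lines (0.68, adjusted p = 0.000961). Snai1 passed in no line group, with differences from 0.15 to 0.24.

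**Figure D3:**
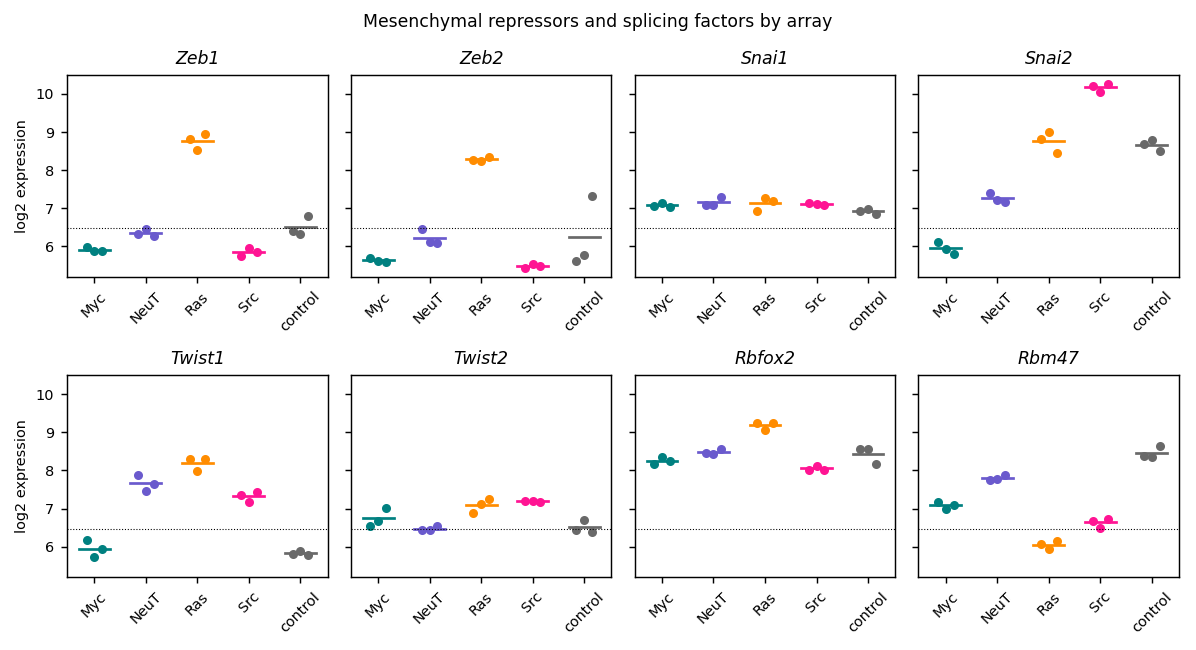
Log2 expression (y axis) of 6 mesenchymal repressors and the splicing factors Rbfox2 and Rbm47 by group (x axis), with points for arrays, bars for means of 3 arrays and a dotted line at 6.47. Zeb1 and Zeb2 are high on the Ras arrays, Snai2 is highest on the Src arrays, and control array 3 lies above the other controls for Zeb2.

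Other splicing factors were read beside Esrp1 and Esrp2. Rbm47, an RNA-binding protein of epithelial cells, was at 6.07, 5.93 and 6.14 on the Ras arrays and at 8.37, 8.34 and 8.65 on the control arrays. It fell in all 4 line groups, by 2.41 ± 0.10 in Ras (adjusted p = 3.09e-10), 1.82 in Src (adjusted p = 1.52e-08), 1.37 in Myc (adjusted p = 1.85e-07) and 0.66 in NeuT (adjusted p = 0.000145). Rbfox2, a splicing factor active in mesenchymal programs, rose in the Ras lines by 0.76 ± 0.11 (adjusted p = 7.44e-05), with 9.25, 9.06 and 9.26 on the Ras arrays and 8.56, 8.57 and 8.16 on the control arrays. Of the 6 measured splicing factors, 1 was higher and 2 lower in the Ras lines (median -0.13), against 13.3% and 14.2% of all genes. The second of the lower ones was Mbnl1 (-0.33, adjusted p = 0.045), a call kept by 8 of 21 alternatives. Celf1, Hnrnpm and Ptbp1 differed from control in the Ras lines by -0.16, 0.23 and -0.09 (adjusted p = 0.109, 0.143 and 0.639). Ptbp1, a splicing repressor, rose in the NeuT lines (0.54, adjusted p = 0.00395).

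The genes whose splice forms the ESRPs direct were lower at the gene level in 6 of 6 cases in both the Ras and the Myc-labelled lines, and in 5 of 6 in the NeuT and Src lines. The shares of all genes called lower were 14.2% for Ras, 12.7% for Myc, 11.6% for NeuT and 12.2% for Src. The medians were -0.99 for Myc, -0.58 for NeuT, -1.35 for Ras and -0.41 for Src, and the alternatives gave 3 to 6 lower in the Src lines. Fgfr2, the receptor with an epithelial ESRP-dependent splice form, was lower in the Ras lines (-2.12, adjusted p = 9.02e-10), the NeuT lines (-2.07) and the Myc-labelled lines (-1.85). Its means there were 4.80, 4.85 and 5.06, below the median level of 6.47, so the sizes of these falls may be limited by background. In the Src lines the difference was -0.38 (adjusted p = 0.00933). Enah, a regulator of actin filaments, fell by 2.72 ± 0.16 in the Ras lines, and Cd44, a hyaluronan receptor, by 1.60 ± 0.12. In the NeuT lines Cd44 differed by 0.24. Ctnnd1, which encodes a catenin of adherens junctions, fell by 1.20 in the Myc-labelled lines. The levels say nothing of which splice forms were made.

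Of 26 measured epithelial effector genes, which include known targets of GRHL2, 25 were lower and 0 higher in the Ras lines than in control. Over all genes 14.2% were lower and 13.3% higher. The Ras median was -2.05. The counts were 13 lower and 1 higher in the Myc-labelled lines, 14 lower and 4 higher in NeuT (2 higher without control array 3), and 20 lower and 0 higher in Src. The shares of all genes lower were 12.7%, 11.6% and 12.2%, and higher 15.9%, 15.2% and 14.2%. Against the Myc, NeuT and Src lines, the Ras lines were lower for 22, 23 and 19 of the 26 and higher for 0. Of all genes, 16.6%, 16.5% and 14.1% were lower in these comparisons. Epcam and Cdh1 were 37.5-fold and 38.1-fold lower in the Ras lines than in control, and Mal2, a protein of apical transport, was 57.4-fold lower. Bspry went other ways by group: it rose in the NeuT lines (1.49) and the Myc-labelled lines (0.68) and fell in the Ras (-1.55) and Src lines (-1.46). Cldn7, a tight junction protein, was at 7.78, 7.29 and 7.93 on the Src arrays, where Grhl2 was highest, and at 10.60, 10.62 and 10.26 on the control arrays.

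**Figure D4:**
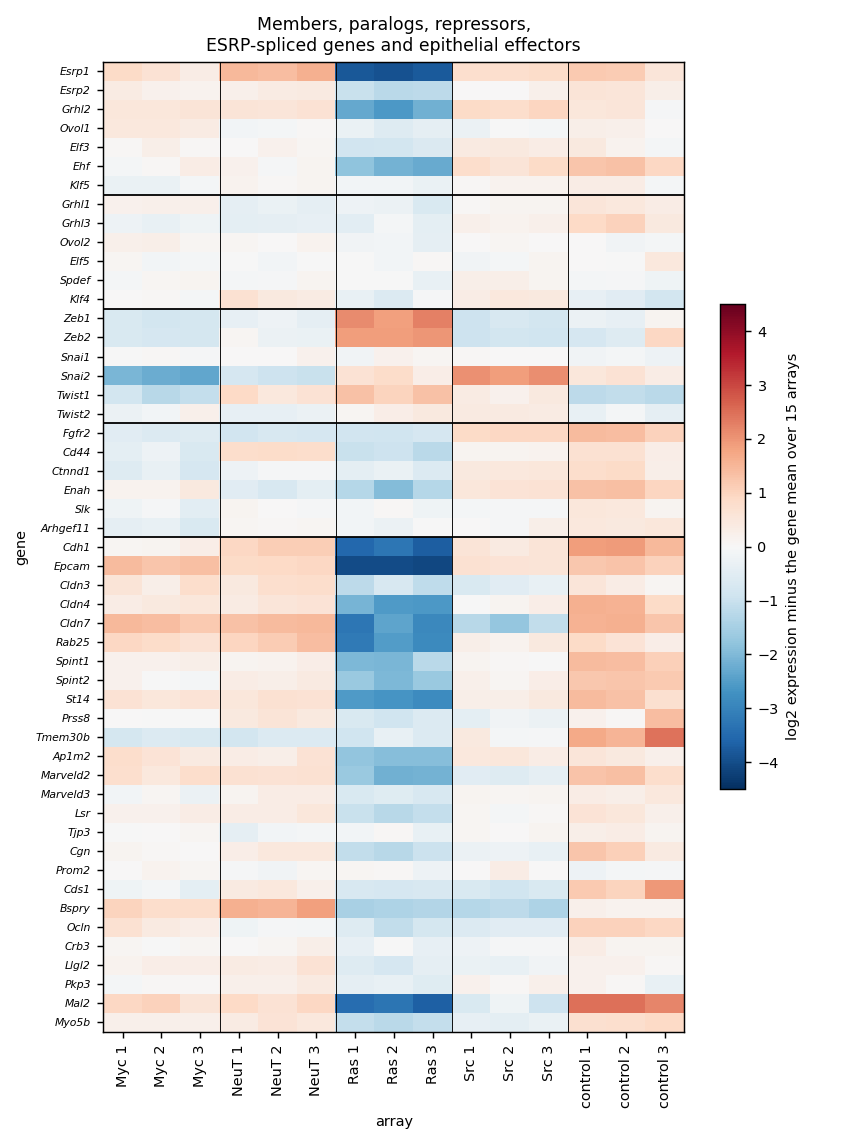
Log2 expression minus the gene's mean over 15 arrays (colour), for the members, paralogs, repressors, ESRP-spliced genes and epithelial effectors (rows) on each array (columns). The 3 Ras columns are low across the members other than Klf5 and most effectors, and high for Zeb1 and Zeb2.

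The mesenchymal effectors moved in part. In the Ras lines 5 of 11 measured were higher and 1 lower (13.3% and 14.2% of all genes), with a median of 0.19. Fn1 was the lower one (-2.52, limma adjusted p = 1.18e-05). It was at 9.19, 10.14 and 8.55 on the Ras arrays and at 11.85, 12.04 and 11.55 on the control arrays. Fn1 also fell in the Src lines (-3.54) and the Myc-labelled lines (-1.34). Sparc differed by 0.19 in the Ras lines (adjusted p = 0.308). Vim, the intermediate filament vimentin, rose by 2.99 ± 0.09 in the Ras lines and 1.67 ± 0.09 in NeuT, and it fell by 1.57 in the Myc-labelled lines. Cdh2, which encodes N-cadherin, rose by 3.77 ± 0.10 in Ras and 1.91 ± 0.10 in NeuT, so the NeuT lines had higher Vim and Cdh2 beside the highest Esrp1. Fibroblast markers were read for the cells a culture could hold. Their mean level over 7 genes was 6.32 to 6.75 on the Ras arrays, against 6.22 to 6.41 on the control arrays and 5.95 to 6.10 on the other line arrays. Dcn, which fibroblasts make, was at 8.04, 8.96 and 7.52 on the Ras arrays and at 6.78, 6.94 and 7.39 on the control arrays, while Col1a1 was at 7.08, 7.14 and 6.94 on the Ras arrays and at 7.17, 7.14 and 7.11 on the control arrays. Of the 7 fibroblast genes, 2 were higher and 1 lower in the Ras lines than in control (13.3% and 14.2% of all genes). Dcn rose by 1.14 (adjusted p = 0.00494), a call lost when only these groups were fitted (adjusted p = 0.0793). Col3a1, a fibrillar collagen, was at 6.73, 6.78 and 6.92 on the Ras arrays and at 6.28, 6.34 and 6.18 on the control arrays (0.54, adjusted p = 0.000164). Pdgfra was the lower one (-0.45, adjusted p = 0.0435), a call kept by 7 of 21 alternatives, with adjusted p up to 0.176 in the others. Lum, another fibroblast gene, was at most 4.42 on the Ras arrays and 4.11 on the control arrays. The part of such cells in the Ras differences was not tested.

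Basal and luminal markers also varied across the Myc, NeuT and Src groups. There Grhl2 and the ESRPs differed from control by less than in the Ras lines, though some of those differences were called. Krt5 and Krt14, the basal keratins, were below 6.47 on all Ras arrays. Krt5 was also below it on the NeuT arrays, at 5.66, 5.65 and 5.78, while Krt14 averaged 8.31 there. The basal list of 4 genes averaged 8.06 to 8.13 per array in the Myc-labelled lines, 6.50 to 6.61 in NeuT, 5.79 to 6.02 in Ras, 10.18 to 10.53 in Src and 9.88 to 10.37 in control. The luminal list of 4 measured genes averaged 9.31 to 9.43 in the Myc-labelled lines and 9.73 to 9.89 in NeuT. It averaged 6.46 to 7.55 in Ras, 8.86 to 9.01 in Src and 9.82 to 10.10 in control. Krt18, a luminal keratin, was at 9.83, 6.58 and 5.80 on the Ras arrays and at 12.48, 12.37 and 11.90 on the control arrays, with an SD of 2.14 over the Ras arrays, against at most 0.22 for any member. Ras array 1, the one with Krt18 at 9.83, had Esrp1 at 4.86 and Grhl2 at 5.64.

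By the smallest root mean square difference over the 15 arrays after centring each gene on its mean, the genes nearest to Esrp1 were Fermt1 (0.41), Bst1 (0.47) and Epcam (0.47), against a spread of 1.95 for Esrp1 itself. Fermt1, an adhesion protein of epithelial cells, was at 4.98, 5.31 and 5.31 on the Ras arrays and between 9.19 and 10.50 on the other 12. The nearest to Esrp2 were Lsr (0.11), Cxadr (0.13) and Sft2d2 (0.15), and to Grhl2 Rdh10 (0.30), Cpne8 (0.31) and Lama3 (0.33). Nearest to Ehf were Jup (0.25), which encodes plakoglobin, Spint2 (0.34) and Sh3yl1 (0.34). Elf3 had Lmbr1 (0.14), Pak6 (0.15) and Rell1 (0.16), Ovol1 had Arel1 (0.11), Alg9 (0.13) and Fam8a1 (0.14), and Klf5 had Mea1 (0.09), Cd9 (0.09) and Srf (0.11). The spreads of Ovol1, Elf3 and Klf5 themselves were 0.31, 0.42 and 0.21, so their distances start from a small span.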

How the data were processed

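The table the authors deposited holds log2 expression, and RMA and Affymetrix Expression Console 1.1 are named for it, per the submitters' processing notes. Background settings were not given in the sources used here, nor were the summary level and the genome build. Of 35556 probe sets, 21789 carried 1 gene, 1621 several and 12146 none; where a gene had several of its own, the one with the highest mean was taken, giving 19938 genes. Low values were not filtered out. All 15 arrays entered 1 linear model of 5 group means in limma 3.58.1 in R 4.3.3 (lmFit, eBayes). P-values are two-sided and Benjamini-Hochberg adjusted over all genes, with calls at an adjusted p under 0.05 and no fold minimum. Errors are SE for differences and SD for levels. The members and gene lists were chosen with earlier results of these data known. Named genes were the members, the 3 genes nearest each, and all paralogs, repressors and splicing factors. Some of the 4 genes of each other list with the smallest F-test p, and the transduced genes, were also named. Cldn7, Cdh3, Kap, Lum, Dcn, Pdgfra, Col1a1, Col3a1 and Fn1 were added after their values were seen. Alternatives were median centring, quantile normalization, array weights, a trended robust variance, a filter at the median level, averaged probe sets, only the groups compared, a 2-fold minimum, the replicate number as a block and leaving out each array. Leaving out control array 3 for gene lists was chosen after seeing the data. The fits were tested on simulated data. Figures were drawn with matplotlib 3.10.9 in Python 3.11.15.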

Additional observations from a re-analysis of the deposited data

How the results depend on the processing

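In the Ras lines, 6 of 7 member differences from control, 6 from Myc, 5 from NeuT and 5 from Src kept their call and direction under every alternative of fit, scaling, filter or arrays run, the 2-fold minimum apart. Over all member differences, 862 called values stayed called and 97 lost the call, while of the uncalled ones 594 stayed so, 30 became called and 17 changed sign. A 2-fold minimum left 1 member called for Myc and 1 for NeuT against control, 4 for Ras against control and 4 against NeuT, and 0 for Src against control, Myc and NeuT and for NeuT against Myc. Array weights gave 4 for Myc and 4 for NeuT against control and 5 for Src against NeuT. Fitting only the groups compared gave 1 for Myc, 1 for NeuT and 0 for Src against control, and 4 for Src against NeuT. Src against control had 4 calls, 2 under quantile normalization and 2 with the replicate block, the numbers not being shown to pair samples (2 of 30 same-numbered pairs deviated together with r over 0.1). Leaving out single arrays gave 2 to 4 calls for Myc, 1 to 2 for NeuT, 6 to 7 for Ras and 1 to 5 for Src against control, and 2 to 4 for Src against NeuT. Shares of all genes under these settings are not set beside the counts, so the counts describe only how stable the member calls were. The sign changes were all in uncalled values near 0. Elf3 in Myc against control was 0.0174 with median centring, 0.0037 with quantile normalization and -0.1687 to 0.0974 with an array left out, and in NeuT against control -0.1985 to 0.0677. Klf5 in Src against control was 0.0153 with quantile normalization, and in Src against NeuT -0.0396 with centring and -0.0245 to 0.037 with an array left out. With an array left out, Klf5 in Ras against Myc was -0.0064 to 0.1069, Ovol1 in Src against NeuT -0.1202 to 0.0155 and Elf3 in NeuT against Myc -0.0736 to 0.0455. Ehf in NeuT against Myc was 0.0016 with array weights and -0.0968 to 0.1096 with an array left out. The causes were not tested. The 3 arrays a group limit precision. Members near or below 6.47 may be read near background, which covers Ovol1 on most arrays and all members but Klf5 on the Ras arrays.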

Other observations

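The miR-205 and miR-200 families target Zeb1 and Zeb2 and were looked at after their values were seen. The precursor probe sets of Mir200a, Mir200b, Mir200c, Mir141 and Mir205 were below the median level of 6.47 on 15 of 15 arrays, so their levels may lie near background. Some differences passed. Mir205 was higher in the Src lines, at 5.63, 5.55 and 5.64 on the Src arrays and at 5.11, 5.16 and 4.95 on the control arrays (0.54 ± 0.07, limma adjusted p = 8.68e-05). Its mature product is, with the seed (bases 2 to 8) in capitals, from RefSeq on GRCm38.p6 at chr1:193507503-193507524, minus strand.
mmu-miR-205-5p: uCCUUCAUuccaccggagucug
Mir205 was higher in the Src lines than in the Myc-labelled lines (0.77, adjusted p = 4.17e-06) and the NeuT lines (0.74, adjusted p = 5.94e-06), and lower in the Ras lines than in the Src lines (-0.83, adjusted p = 1.07e-06). In the Ras lines Mir205 (-0.29, adjusted p = 0.00679) and Mir200a (-0.37, adjusted p = 0.0104) were lower than in control. Mir205 was at 4.77, 4.83 and 4.74 on the Ras arrays. It was similar on the Myc-labelled arrays, at 4.82, 4.86 and 4.83, and on the NeuT arrays, at 4.83, 4.96 and 4.83. Precursor values this low may be background in each of these groups, and a part of Mir205 in the Zeb1 and Zeb2 differences was not tested. For Mir200a the F test over the line groups did not pass (adjusted p = 0.566), and Ras minus Src was -0.14 (limma adjusted p = 0.33). These precursor values do not measure the mature miRNA.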
